A study of Mus musculus with 2 samples.

Results

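The annexin family was examined in the mouse macrophage-like line RAW264.7, here made to express murine LXRα stably after chemical transfection. Its members here are Anxa1, Anxa2, Anxa3, Anxa4, Anxa5, Anxa6, Anxa7 and Anxa11, and they were taken as every probe set whose only gene symbol on the array is one of these 8 names. That gave 17 probe sets for 7 genes, out of 18193 genes and 34945 probe sets of 1 symbol on the array. The only probe set naming Anxa11 carries 3 symbols, so Anxa11 was not analysed here. The family was chosen by the measured ligand-over-DMSO ratios of Anxa3, which was higher, and Anxa1, which was lower, so all of the values below are a description of the comparison that chose it and none is a test.

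Cells of both groups carry the introduced LXRα and were cultured for 24 h. One group received GW3965, a synthetic LXR agonist, at 1 µM together with LG268, an RXR agonist, at 100 nM, and the other received the solvent DMSO. Each group is 1 Affymetrix mouse 430 2.0 array, so neither ligand alone, nor cells without the introduced receptor, nor the variation between cultures was measured. The sources used here do not say whether the transfected line is 1 clone or a pool. The 7 macrophage markers Csf1r, Adgre1, Cd68, Lyz2, Spi1, Cd14 and Itgam were all above the signal floor of 276.4 on both arrays and at most 1.23-fold apart, while the representative probe sets of the lymphoid, fibroblast and epithelial markers lay below the floor on both. Of 4 granulocyte markers, Mpo and Elane exceeded the floor on the ligand array alone, Camp on the DMSO array alone and Ltf on neither. Their highest signal was 334.2 (Elane with the ligands), their summed signal was 718.9 with the ligands and 619.6 with DMSO, and their part in the results was not tested.

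Annexins are proteins that bind phospholipid membranes when calcium rises, each through a conserved core of repeats preceded by an N-terminal tail that differs from member to member. They bring membranes together, help to reseal torn plasma membrane and guide vesicle traffic and secretion. In macrophages and neutrophils they are best known from Anxa1, a glucocorticoid-induced protein that limits inflammation through formyl peptide receptors, and from Anxa5, whose binding to exposed phosphatidylserine marks dying cells.

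The 2 arrays showed a family that did not differ in 1 direction. Anxa3 was 4.96-fold brighter with the ligands, Anxa1 was 1.69-fold dimmer, and the other 5 genes lay within 1.5-fold. By the probe set that represents each gene, the one whose mean log2 signal was highest, 5 genes were higher and 2 were lower. A higher signal by at least 2-fold was seen for 1 gene, Anxa3, and a lower one by that much for 0. Of the 11077 genes measured on the array, meaning that the brighter signal exceeded the floor, 1.67% were higher by at least 2-fold and 0.776% lower. Most of them, 88.9%, lay within 1.5-fold. The family was chosen for its extreme members, so nothing is read from these counts. The median log2 ratio of the 7 genes was 0.22, beside -0.03 over all measured genes. With quantile normalization the median of the 7 genes was 0.08, so nothing is read from this gap. Signals are MAS5 intensities in arbitrary units, the floor is the median signal of all probe sets other than controls, and every ratio is the ligand array over the DMSO array. In RNA from whole cultures, fewer cells that express a gene and less RNA per cell cannot be told apart.

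**Figure D1:**
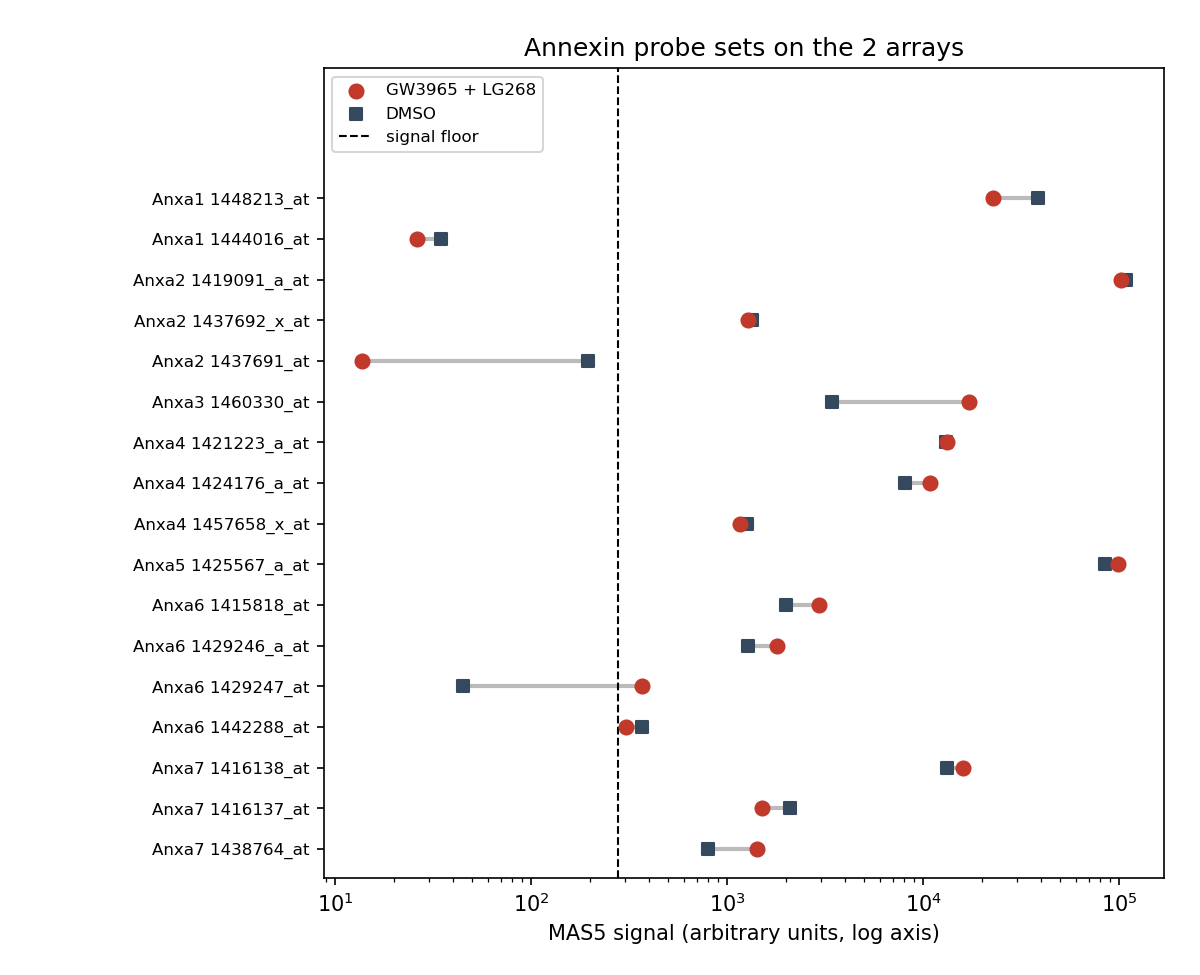
MAS5 signal (log axis) of the 17 annexin probe sets on the GW3965 plus LG268 array (circles) and the DMSO array (squares), with the signal floor of 276.4 dashed. Where both signals exceed the floor, the Anxa3 pair stands furthest apart, and the wide gaps of 1437691_at (Anxa2) and 1429247_at (Anxa6) involve signals below the floor.

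Anxa3 encodes an annexin known from human neutrophils, where it associates with granules. Its 1 probe set, 1460330_at, had a signal of 17067 with the ligands, against 3439 with DMSO, a 4.96-fold higher value and a log2 ratio of 2.31. Both signals were far above the floor. Only 17 of the measured genes had a higher ratio, since Anxa3 was the 18th from the top. Among 1879 genes whose mean log2 signal lay within 0.5 of that of Anxa3, 2 had a ratio at least as high, Anxa3 itself included. No other probe set of 1 symbol reports on Anxa3, so the ratio has no second measurement within these arrays.

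Anxa1 differed the other way. Its probe set 1448213_at had a signal of 22747 with the ligands, against 38547 with DMSO, a 1.69-fold lower value and a log2 ratio of -0.76. It was the 235th lowest of the 11077 measured genes. At its own signal level large differences were rarer, since 6 of 667 genes within 0.5 of its mean log2 signal had a ratio at least as low, Anxa1 included. The second Anxa1 probe set, 1444016_at, gave 26.3 with the ligands and 34.9 with DMSO, both below the floor, and therefore has no ratio. Anxa1, like Anxa3, thus rests on 1 probe set.

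How far probe sets of a gene differ gives the only error these arrays hold. For 4866 genes the 2 brightest probe sets both exceeded the floor on each array, and from their differences a single probe set had an SD of 0.28 in log2 ratio. Because Anxa3 and Anxa1 were chosen for their ratios, the SD is given as a scale for the values and not as a test of them. It measures disagreement inside 2 arrays and holds no variation between cultures.

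Anxa2 encodes the annexin that pairs with S100a10 at the cell surface, where the complex binds plasminogen and its activator. Its signals were nearly equal on the arrays. Probe set 1419091_a_at read 101877 with the ligands and 108080 with DMSO, and 1437692_x_at read 1277 with the ligands and 1340 with DMSO. Their log2 ratios of -0.09 and -0.07 were the closest pair in the family. The third probe set, 1437691_at, was at 13.7 with the ligands and 194.5 with DMSO, below the floor on both arrays, so this wide gap gives no fold.

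Anxa5, the phosphatidylserine-binding annexin, has 1 probe set, 1425567_a_at. It read 99028 with the ligands and 85077 with DMSO, a log2 ratio of 0.22 that is smaller than the SD between probe sets.

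The stretch of 250 bases before the start site is shown for Anxa1, the member with the lower signal, and for Anxa2 and Anxa5, which were within 1.2-fold, to set the upstream sequence of a member that differed beside those of members that differed little. The sequences are RefSeq's for mouse build GRCm38.p6, run 5′ to 3′ on the gene's own strand and end at the base before the start. The arrays' files name no build. The windows are chr19:20390672-20390921 on the minus strand for Anxa1, chr9:69453433-69453682 on the plus strand for Anxa2 and chr3:36475888-36476137 on the minus strand for Anxa5. Capitals mark every match, on either strand, to any of 5 motifs. The TATA box was spelled TATAAA and the GC box GGGCGG. The CCAAT box was searched under the letters of its name. The nuclear receptor half-site was spelled AGGTCA. Its repeat DR4, to which LXR-RXR pairs are known to bind, was spelled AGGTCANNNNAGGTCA.
Anxa1: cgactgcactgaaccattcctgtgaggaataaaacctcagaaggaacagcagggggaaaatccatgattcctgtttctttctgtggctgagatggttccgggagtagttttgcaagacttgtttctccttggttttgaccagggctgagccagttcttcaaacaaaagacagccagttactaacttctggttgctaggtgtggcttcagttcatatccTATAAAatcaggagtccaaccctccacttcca
Anxa2: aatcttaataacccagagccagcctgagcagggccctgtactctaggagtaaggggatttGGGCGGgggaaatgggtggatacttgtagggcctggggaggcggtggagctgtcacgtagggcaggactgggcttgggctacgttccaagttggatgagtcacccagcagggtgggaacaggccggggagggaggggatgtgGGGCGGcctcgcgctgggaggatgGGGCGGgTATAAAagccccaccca
Anxa5: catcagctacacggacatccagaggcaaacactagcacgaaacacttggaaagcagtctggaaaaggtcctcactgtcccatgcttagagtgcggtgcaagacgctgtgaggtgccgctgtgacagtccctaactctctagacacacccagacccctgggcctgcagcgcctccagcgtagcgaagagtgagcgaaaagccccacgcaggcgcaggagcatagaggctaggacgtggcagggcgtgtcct

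Anxa1 has a TATAAA beginning 32 bases before its start and no other match, and its window is 46.0% G or C with 2 CG dinucleotides. Anxa2 has a TATAAA beginning 17 bases before the start and 3 GGGCGG matches, at 62.4% G or C with 9 CG dinucleotides. Anxa5 has no match to any of these motifs, at 58.8% G or C with 13 CG dinucleotides. Anxa4 and Anxa7 lay within 1.5-fold by their representative probe sets, and their windows are not shown. Each had a window with less G or C than that of Anxa1 and as few CG dinucleotides. The other window of each was richer in both than that of Anxa1. Which of these start sites the cells use was not measured, and a link between either measure and the ratios was not tested. The medians over all 32851 promoter windows of this length were 52.4% and 6 CG dinucleotides. The TATA box letters occurred in 12.4% of these windows, the GC box in 32.7%, the CCAAT box in 33.8% and the half-site in 14%, and every DR4 match holds the half-site as well. Of 8 windows for 6 members (Anxa1, Anxa2, Anxa4, Anxa5, Anxa7 and Anxa11), 2 held the TATA box and 4 the GC box, and none held the CCAAT box, the half-site or DR4. The 2 windows of Anxa7 overlap, and 1 GC box lies in the overlap and was found in both. DR4 was found in 5 of all windows, or 0.0152%. A match is a run of letters and not a bound site, and the absence of one says only that the letters are not in this window. Anxa3 and Anxa6 are not in the promoter table.

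Anxa6 is the largest annexin, with a longer core than the rest, and is known for its place on late endosomes and for its links to cholesterol handling there. It had the highest gene ratio after Anxa3. Probe set 1415818_at read 2945 with the ligands and 1993 with DMSO, a 1.48-fold higher value, and 1429246_a_at read 1788 with the ligands and 1280 with DMSO, 1.40-fold higher. These 2 probe sets were alike, at log2 ratios of 0.56 and 0.48. The others were near or below the floor. Probe set 1442288_at, just above the floor, read 305.5 with the ligands and 366.2 with DMSO, a log2 ratio of -0.26. Probe set 1429247_at read 366.1 with the ligands and 45.1 with DMSO, which is below the floor, so it is at least 1.32-fold higher.

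Anxa7, first described as synexin for its part in the fusion of secretory granules, gave no single direction. Probe set 1416138_at, which represents the gene, read 16009 with the ligands and 13181 with DMSO, a log2 ratio of 0.28. Probe set 1438764_at read 1412 with the ligands and 800.2 with DMSO, a log2 ratio of 0.82, and was the only annexin probe set besides that of Anxa3 at least 1.5-fold higher above the floor. Probe set 1416137_at read 1497 with the ligands and 2099 with DMSO, a log2 ratio of -0.49. The range of 1.31 between the highest and lowest was wide for the arrays. Of 1306 genes with 3 probe sets exceeding the floor on each array, 33 (2.53%) had a range at least as large, and the median range was 0.43.

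Anxa4, an annexin abundant at the membranes of secretory cells, also had probe sets on both sides of 0. Probe set 1421223_a_at read 13222 with the ligands and 13107 with DMSO, a log2 ratio of 0.01. Probe set 1424176_a_at read 10876 with the ligands and 8028 with DMSO, a log2 ratio of 0.44, and 1457658_x_at read 1158 with the ligands and 1262 with DMSO, a log2 ratio of -0.12. Their range was 0.56, and 33.8% of the genes with 3 such probe sets had one at least as large. The gene's direction therefore depended on the probe set read.

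**Figure D2:**
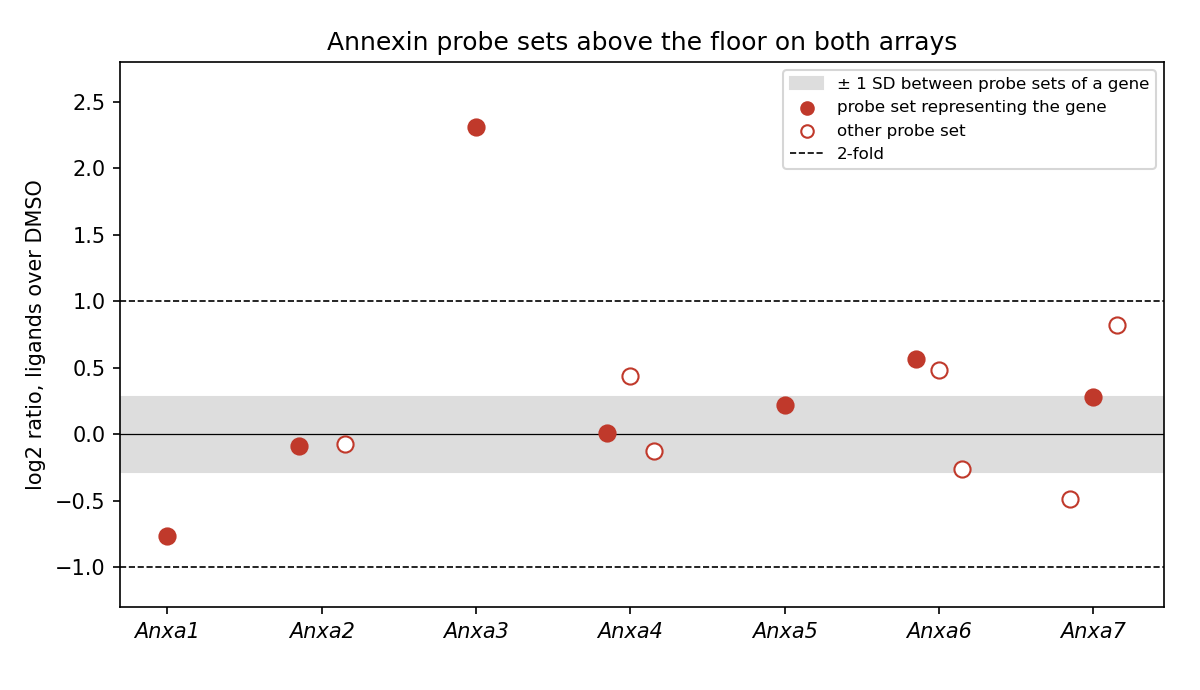
Log2 ratio (ligands over DMSO), by gene, of the 14 annexin probe sets that exceeded the floor on each array. Filled points represent the gene, the grey band is ± 1 SD (0.28) of 1 probe set around 0 and dashed lines mark 2-fold. Anxa3 lies above the upper line at 2.31, Anxa1 is the lowest at -0.76, and Anxa4, Anxa6 and Anxa7 have points on both sides of 0.

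Counted over probe sets, 14 of the 17 were above the floor on both arrays, 1 on the ligand array alone and 2 on neither. Of the 14, 8 were higher and 6 lower with the ligands, and their median log2 ratio was 0.12, beside -0.02 over all 18121 such probe sets. Within 1.5-fold lay 11 of them. The 3 beyond it were the probe sets 1460330_at of Anxa3, 1438764_at of Anxa7 and 1448213_at of Anxa1, of which the first and second were higher and the third lower. The backgrounds among the 18121 probe sets were 6.73% higher by 1.5-fold or more and 5.37% lower by as much. Of the 4 genes with more than 1 such probe set, Anxa2, Anxa4, Anxa6 and Anxa7, only Anxa2 had all of them in 1 direction. Probe sets ending in _s_at or _x_at can detect more than 1 transcript, which applies to 1437692_x_at (Anxa2) and 1457658_x_at (Anxa4).

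**Figure D3:**
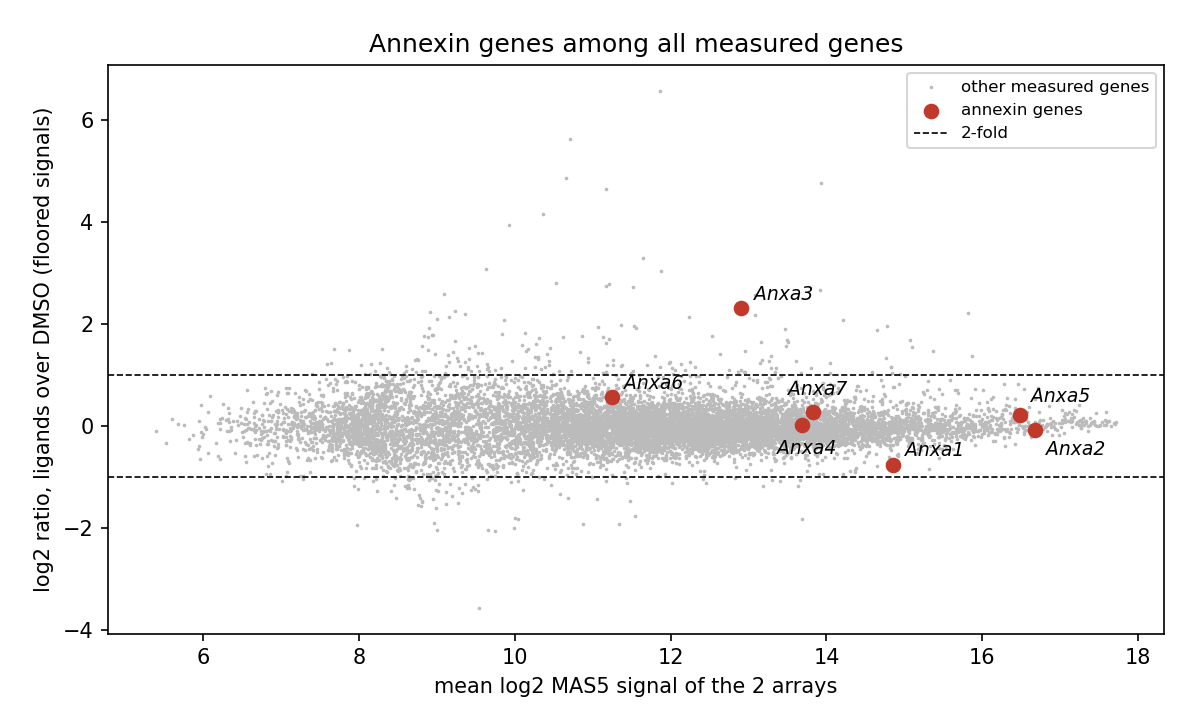
Log2 ratio (ligands over DMSO, floored signals) against the mean log2 MAS5 signal of the 2 arrays for the 11077 measured genes (grey) and the 7 annexin genes (red), with 2-fold lines dashed. Anxa3 lies far above the bulk of genes and Anxa1 at the lower edge of it, while the other 5 lie inside the bulk.

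The genes nearest to Anxa3 in log2 signal on the 2 arrays, among genes above the floor on both, were Eepd1, Sdc3 and Acss2. Eepd1 read 18411 with the ligands and 4065 with DMSO, at a distance of 0.27 in log2 signal. Sdc3, a syndecan, read 21047 with the ligands and 3577 with DMSO, at a distance of 0.31. Acss2, an acetyl-CoA synthetase, read 16221 with the ligands and 5163 with DMSO, at a distance of 0.59. The genes nearest to Anxa1 were Cd72, Pde2a and Snx9, at distances of 0.12, 0.14 and 0.15 and with log2 ratios of -0.74, -0.61 and -0.58. Likeness over 2 arrays rests on 2 values a gene.

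The remaining annexins were mostly below the floor. Anxa9 read 2964 with the ligands and 2465 with DMSO, a log2 ratio of 0.27. Anxa8, Anxa10 and Anxa13 were below the floor on both arrays with every probe set, and the highest of their signals was 245.8, that of Anxa8 with DMSO.

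The EF-hand partners of annexins, S100 proteins and their relatives, had ratios on both sides of 0. Of 10 listed genes 6 were measured, and by the representative probe sets none was 1.5-fold apart, a count that the shares among all measured genes (6.36% higher and 4.77% lower by 1.5-fold) would also give, so nothing is read from it. By the same probe sets 2 had positive and 4 negative ratios, and the median log2 ratio was -0.07. S100a10, the partner of Anxa2, read 76764 with the ligands and 89747 with DMSO, a log2 ratio of -0.23, and its other probe sets 1456642_x_at and 1439348_at were at -0.32 and -0.65. All 3 were negative. S100a6, which binds several annexins, read 77233 with the ligands and 98879 with DMSO, a log2 ratio of -0.36. S100a1, in contrast, read 11488 with the ligands and 8329 with DMSO, with log2 ratios of 0.46 and 0.49 over both of its probe sets. Pdcd6, the calcium sensor that binds Anxa7 and Anxa11, had a log2 ratio of -0.04. Sri, or sorcin, a partner of Anxa7, had 0.07, with its other probe sets at -0.33 and 0.43. S100a4 was at -0.11, S100a8, S100a9 and S100b lay below the floor on both arrays, and S100a11 was not analysed here.

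Of the formyl peptide receptors, through which Anxa1 acts, Fpr2 was below the floor at 196.2 with the ligands and 190.4 with DMSO, and Fpr1 and Fpr3 were not analysed here. Genes known to respond to glucocorticoids, as Anxa1 does, had 6 positive and 2 negative ratios by the representative probe sets. Among the positive ones, Zbtb16 exceeded the floor on the ligand array alone. Of 8 such genes, all measured, 2 were higher by 1.5-fold or more, 1 of them by over 2-fold, and none was lower by 1.5-fold. Among all measured genes 6.36% were higher and 4.77% lower by at least 1.5-fold. The median log2 ratio of the 8 listed genes was 0.23, beside -0.03 over all measured genes. Signs were not counted over all measured genes, so nothing is read from the 6 positive and 2 negative ratios. Sgk1, a serine-threonine kinase, read 2164 with the ligands and 895.5 with DMSO, 2.42-fold higher from 1 probe set. Per1, a circadian clock repressor, read 1776 with the ligands and 1166 with DMSO, 1.52-fold higher. Klf9, a Krüppel-like factor, had the lowest ratio of the list at -0.49. All of its probe sets above the floor were negative, from -0.21 (1422264_s_at) to -0.54 (1428289_at). Fkbp5 was at -0.17, with another probe set at -0.05. The receptor gene Nr3c1 was at 0.03, and its other probe sets above the floor reached from -0.47 (1453860_s_at) to 0.39 (1457635_s_at). Tsc22d3, which encodes the mediator GILZ, was at 0.28, although its other probe sets above the floor were at -0.75 (1420772_a_at) and -0.09 (1425557_x_at).

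In the plasminogen system, which meets Anxa2 at the cell surface, 3 of 8 listed genes were measured. Plau, the urokinase activator, read 1047 with the ligands and 592.8 with DMSO, 1.77-fold higher, and its second probe set, 1422139_at, read 1318 with the ligands and 406.2 with DMSO, a log2 ratio of 1.70. Both of its probe sets were higher with the ligands. Its receptor gene Plaur was at -0.12 and the plasminogen receptor gene Plgrkt at 0.02. Plat, Plg and Serpinb2 were below the floor on both arrays.

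Genes that control phosphatidylserine on the outer membrane leaflet, the ligand of Anxa5, had 7 of 8 members measured, with a median log2 ratio of 0.18 and none 1.5-fold apart by the representative probe sets. The largest by these were the scramblase genes Xkr8 at 0.40 and Ano6 at 0.31. Other probe sets above the floor spread more widely. Those of Tmem30a, the flippase subunit, reached from -0.41 (1416447_at) to 0.70 (1443619_at), beside -0.02 for its representative. Those of the flippase gene Atp8a1 reached from -0.66 (1433965_at) to 0.26 (1423598_at), beside 0.01. A second probe set was at -0.47 for Plscr1, 0.48 for Atp11a, -0.12 for Plscr3 and 0.28 for Ano6. Genes of other proteins, with C2 domains instead of annexin repeats, had 11 of 14 members measured. By the representative probe sets 9 ratios were negative and 2 positive, with a median of -0.17, and several were smaller than the SD between probe sets. Cpne2, a copine, was 1.86-fold higher, at 1274 with the ligands and 685.4 with DMSO, and was the only one 1.5-fold apart by these. A second probe set of Prkcd, a protein kinase C, was higher still at 0.95 (1442256_at), beside 0.29 for its representative. Cpne3 counted as negative at -0.14, although its other probe sets above the floor were at 0.67 (1428514_at) and 0.46 (1452814_at). Myof, or myoferlin, a ferlin of membrane repair, was at -0.20, while Dysf, dysferlin, was below the floor. The 8 ESCRT genes of membrane repair were all measured, with 4 positive and 4 negative ratios, none 1.5-fold apart by the representative probe sets, and a median of 0.03. Another probe set was at -0.42 for Vps4b (1457067_at), 0.08 for Chmp3 and -0.07 for Chmp4b. Those of Pdcd6ip were all negative, from -0.07 to -0.30. Among all measured genes 6.36% were higher and 4.77% lower by at least 1.5-fold, so nothing is read from the 1.5-fold counts of these lists. The signs of the ratios were not counted over all measured genes, so nothing is read from the sign counts of any related list.

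**Figure D4:**
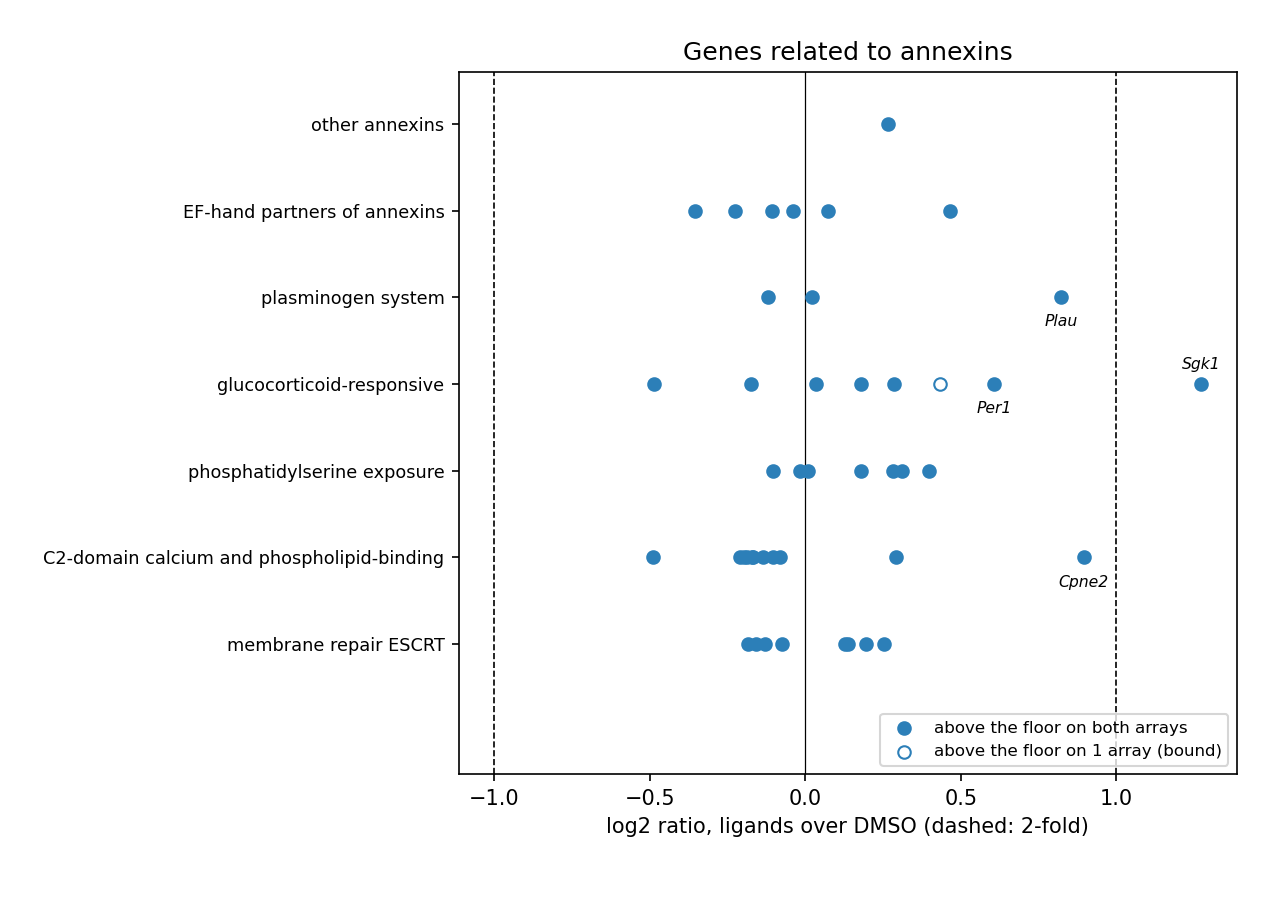
Log2 ratio (ligands over DMSO) of the measured genes, each by its representative probe set, in 6 related lists and of the 1 measured annexin outside the family members, with dashed lines at 2-fold and names for genes at least 1.5-fold apart. Filled points were above the floor on both arrays and open points on 1. Sgk1 is the only gene beyond 2-fold, followed by Cpne2, Plau and Per1 beyond 1.5-fold.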

How the data were processed

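For the Affymetrix arrays, the labels give total RNA from 1 ligand-treated and 1 DMSO-treated culture as the starting material and biotin as the label. The deposited intensities are 1 signal per probe set on a linear scale, produced by MAS5, as the submitters' processing notes state (version not given in the sources used here). Both arrays had a 2% trimmed mean of 2500, so they were not normalized again. Each ratio is thus relative to the array's bulk, and the number of arrays limits the precision. Detection calls were not used.

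Of 45101 probe sets, 34945 had 1 gene symbol, 932 several, 9160 none and 64 were controls. For 34741 the symbol was taken by gene identifier from the GRCm38.p6 table, whether or not it differed from the array's own. Signals under 276.4 (the 50th percentile over both arrays, without controls) were set to it before log2. With 1 array a group no p-value or SD over replicates exists.

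The members, the 7 related lists and the rules were chosen with earlier results of these data known. All members and listed genes could be named whatever their values, and the 3 nearest genes were found for Anxa3 and Anxa1, leaving out RIKEN clones and predicted genes. Ratios and counts were checked on simulated data. There all probe sets of a changed gene shared the same fold and differed by added noise alone. The check therefore covers the calculation and not the error of the arrays. Alternatives were other floors, log2(signal + 32), quantile normalization, centring, averaging or leaving out probe sets, and thresholds of 1.5-fold and 3-fold. Python 3.11.15, numpy 2.4.6 and pandas 2.3.3 were used.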

Additional observations from a re-analysis of the deposited data

How the results depend on the processing

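Anxa3 had log2 ratios of 2.30 to 2.33 with log2(signal + 32), quantile normalization and centring. Other floors, averaging and leaving out probe sets could not move it, since it has 1 probe set with both signals above each floor. Anxa1 ranged from -0.78 to -0.38, and the value of -0.38 came from averaging its probe sets, because the one below the floor counts as 0. The number of annexin genes at least 2-fold lower was 0, and at a threshold of 1.5-fold it was 1, Anxa1. Of the others, Anxa4 to Anxa7 kept a positive sign and Anxa2 a negative one under these alternatives, by the probe set or mean that represented the gene. The median log2 ratio of the annexin genes was 0.22, and 0.08 with quantile normalization. It was 0.20 with probe sets averaged and 0.24 with centring. Over the related lists together, 1 gene was at least 2-fold higher and 0 lower. This became 2 higher and 1 lower with the floor at the 25th percentile, 0 higher with the floor at the 75th percentile, and 2 higher and 2 lower with log2(signal + 32). It became 2 higher with probe sets averaged, 4 higher at 1.5-fold and 0 higher at 3-fold. The lower floor and log2(signal + 32) added genes below the main floor on both arrays, Serpinb2 as higher and S100a9 as lower. Dysf, also below it, was added as lower by log2(signal + 32) alone. Averaging added Plau, whose probe sets were at 0.82 and 1.70. Sgk1 was the gene lost with the floor at the 75th percentile and at 3-fold. No paired analysis was possible because each group has 1 array, and no array could be left out. Signals near the floor limit what can be read from the dim probe sets of Anxa1, Anxa2 and Anxa6.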
